A study of Mus musculus with 3 samples.

Results

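The regions described here are the shared peaks of Foxc1 and Foxc2 in adult mouse kidney glomeruli, that is, the Foxc1 peaks that overlapped a Foxc2 peak by at least 1 bp. They were 427 of the 5207 Foxc1 peaks on chromosomes 1 to 19, X and Y (8.20%, exact 95% interval 7.47 to 8.98%), and they met 425 of the 2878 Foxc2 peaks (14.8%, interval 13.5 to 16.1%). Both lists together held 8094 peaks, 9 of them on other sequences. Chromatin immunoprecipitation followed by sequencing was performed on glomeruli of C57BL/6 mice aged 8 weeks, collected with magnetic beads after perfusion, and the series is titled for the differentiation of podocytes. The libraries were 1 with the Foxc1 antibody D8A6 of CST, 1 with the Foxc2 antibody AF6989 of R&D Systems and 1 of input DNA, which was not analysed here. The mice carried no named allele or treatment, and the labels do not say how many animals each library held. With 1 library per antibody, no spread between animals could be measured, and each interval covers counting error alone. Peak lists hold no expression, so the glomerular label could not be checked against cell markers, and a weak peak in many cells cannot be told apart from a strong peak in few.

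Foxc1 and Foxc2 are closely related forkhead transcription factors, whose winged-helix domains are nearly alike and bind DNA at core sequences of the form TGTTTAC. Both are made by podocytes, the epithelial cells whose interlocking foot processes wrap the glomerular capillaries and are joined by slit diaphragms. Foxc1 and Foxc2 are known from mouse genetics to overlap in function in kidney and vascular development. A shared peak marks a place where both antibodies enriched the same DNA. It does not show that both proteins were bound at the same time, nor that each antibody recognised its own protein alone.

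Of the promoters under shared peaks that held the heptamer TGTTTAC, 8 of the strongest are shown first, because they let the position of each summit be read against the sequence. A summit is the base of highest signal in a peak. Sequences are those of RefSeq for GRCm38.p6, the assembly also called mm10, written 5′ to 3′ on the strand of the gene. The capitals mark TGTTTAC or its complement GTAAACA, and each stretch reaches up to 60 bases to either side of it. No stretch runs past the listed start used for it. Grk6 also has another listed start upstream, and its printed stretch lies wholly after that one. Distances between a heptamer and a summit are measured from the middle base of the heptamer. The facing promoters of Vps26b and Ncapd3, whose pair was stronger than that of Klf9, are not printed because the stretch would have reached the other gene's start, and their copy lay 52 bp from the Foxc1 summit and 181 bp from the Foxc2 summit.

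Peli2, chr14:48120692-48120818, plus strand: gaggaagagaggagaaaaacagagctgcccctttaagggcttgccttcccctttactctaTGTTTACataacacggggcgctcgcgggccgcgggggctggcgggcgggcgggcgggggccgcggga
Etv5, chr16:22439687-22439813, minus strand: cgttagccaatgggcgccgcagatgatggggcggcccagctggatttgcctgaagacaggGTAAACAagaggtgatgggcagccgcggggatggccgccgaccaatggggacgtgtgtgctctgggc
Rmnd5a, chr6:71440704-71440830, minus strand: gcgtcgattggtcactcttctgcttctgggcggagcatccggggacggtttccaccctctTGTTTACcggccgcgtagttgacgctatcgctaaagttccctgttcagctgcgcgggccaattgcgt
Otud1, chr2:19657643-19657730, plus strand: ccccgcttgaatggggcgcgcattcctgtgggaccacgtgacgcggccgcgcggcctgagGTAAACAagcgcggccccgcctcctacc
Grk6, chr13:55445222-55445328, plus strand: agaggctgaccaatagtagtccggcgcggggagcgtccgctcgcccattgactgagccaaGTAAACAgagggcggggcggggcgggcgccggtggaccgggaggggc
Mtmr14, chr6:113237762-113237842, plus strand: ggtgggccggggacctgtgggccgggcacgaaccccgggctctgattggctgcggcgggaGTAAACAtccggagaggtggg
Hibadh, chr6:52640468-52640550, minus strand: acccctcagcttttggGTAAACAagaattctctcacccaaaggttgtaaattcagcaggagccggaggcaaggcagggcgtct
Klf9, chr19:23141066-23141192, plus strand: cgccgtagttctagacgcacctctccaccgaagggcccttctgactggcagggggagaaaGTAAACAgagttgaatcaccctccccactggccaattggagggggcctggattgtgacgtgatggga

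At Peli2, a ubiquitin ligase of innate immune signalling, the heptamer began 117 bp before the listed start. Its middle base lay 8 bp from the Foxc1 summit and 47 bp from the Foxc2 summit. Etv5, an ETS factor downstream of fibroblast growth factor signals, held it 27 and 63 bp from the Foxc1 and Foxc2 summits. At Klf9, a Kruppel-like factor induced by glucocorticoids, the distances were 15 and 52 bp. Each of the 8 printed stretches had its heptamer nearer to the Foxc1 summit. The Foxc2 summit lay furthest away at Grk6, a kinase of G-protein-coupled receptors, where the heptamer covered the Foxc1 summit and stood 563 bp from the Foxc2 summit. That Foxc2 peak overlapped another Foxc1 peak at Grk6 as well. In this other pair the Foxc1 and Foxc2 summits stood at -386 and -350 bp from the upstream listed start of Grk6. Minus means before the start. Rmnd5a, a subunit of a ubiquitin ligase complex, gave 30 and 341 bp. At Otud1, a deubiquitinase, Mtmr14, a phosphoinositide phosphatase, and Hibadh, an enzyme of valine breakdown, the Foxc1 summits lay 4, 18 and 11 bp away and the Foxc2 summits 127, 134 and 77 bp away.

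The same order held over the other promoters. Promoter windows of 300 bases, from 250 before to 50 after a listed start, were searched for TGTTTAC on both strands. For shared pairs the windows were those touched by the Foxc1 peak, and the effect of this choice on the distances was not tested. In these windows 23 pairs held a copy, and the copy lay a median of 11 bp from the Foxc1 summit and 134 bp from the Foxc2 summit. It was nearer to the Foxc1 summit in 21 of 23 pairs, with Kiz and Mcm7 as the exceptions. Within 50 bp of the Foxc1 summit lay 20 of 23 copies (87.0%, interval 66.4 to 97.2%), against 3 of 23 for the Foxc2 summit (13.0%, interval 2.78 to 33.6%). The same distances in unshared peaks were 12 bp (median of 49 copies) for Foxc1 alone and 194.5 bp (median of 20 copies) for Foxc2 alone. The search covered promoter windows only, so distances at shared peaks away from promoters were not analysed here.

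**Figure D1:**
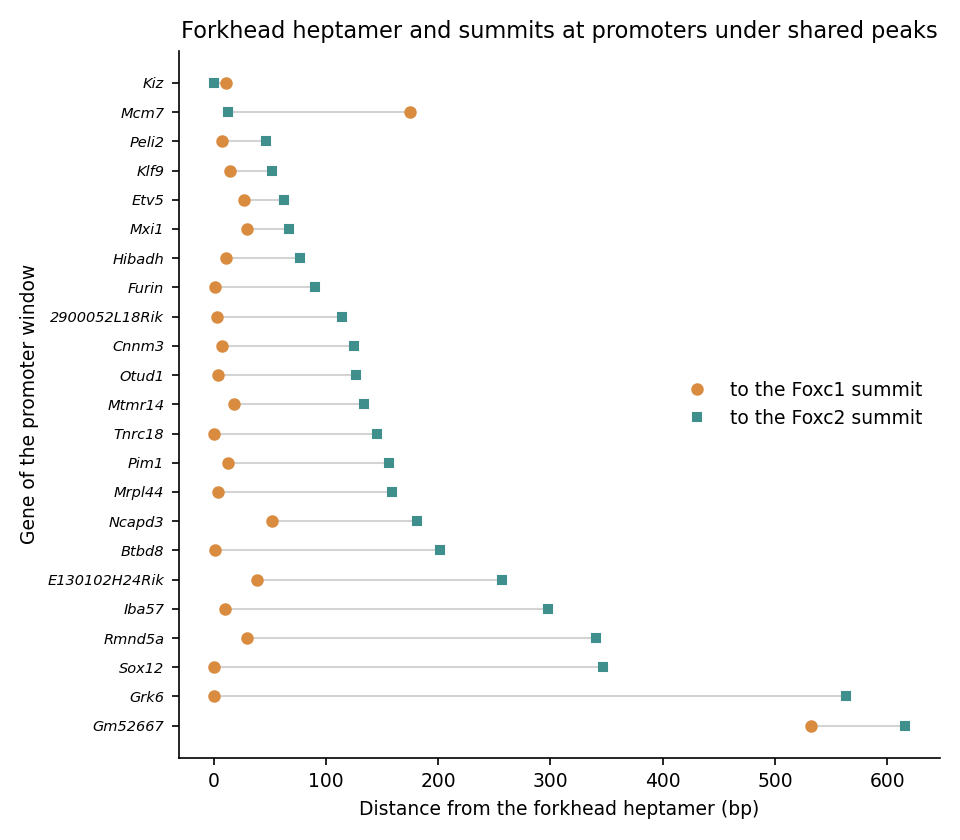
Distance in bp from the forkhead heptamer TGTTTAC to the Foxc1 summit (circles) and to the Foxc2 summit (squares) for the 23 shared pairs with a copy in a promoter window touched by the Foxc1 peak, 1 row per gene, ordered by the distance to the Foxc2 summit. In 21 of 23 rows the circle lies to the left, and the rows of Kiz and Mcm7 are the exceptions.

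Promoters under shared peaks resembled those under Foxc1 peaks in this sequence more than those under Foxc2 peaks. The heptamer was found in 25 of 110 windows touched by a shared Foxc1 peak (22.7%, interval 15.3 to 31.7%). It was found in 51 of 257 windows under Foxc1 peaks alone (19.8%, interval 15.1 to 25.3%), in 22 of 1346 under Foxc2 peaks alone (1.63%, interval 1.03 to 2.46%) and in 1199 of all 32851 windows (3.65%). The interval for shared peaks overlapped that for Foxc1 alone and lay above that for Foxc2 alone. Base composition also differed between these sets, in another order than the shares. The median GC content was 66.3% under shared peaks, 56.3% under Foxc1 alone, 69.3% under Foxc2 alone and 52.7% over all windows. The part of GC content in the result was not tested. With the looser form TGTTTNC, which includes TGTTTAC, the shares were 35.5%, 33.5%, 9.21% and 20.5% in the same order. Windows of 1 gene or of facing genes can overlap, so they are not independent, and a match is a description of letters and not of a bound site. Of the 4 genes whose windows had the highest pair scores, by the lower fold percentile of both lists, Peli2 held the heptamer, and Smo, Tspan4 and Zfp212 held no TGTTTAC.

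The summits of a pair were usually close together. Pairs were chosen by overlap of their peaks, which itself limits this distance, so the distances are a description. The Foxc1 summit minus the Foxc2 summit had a median of 2 bp in genome coordinates, with quartiles of -59 and 72 bp. The Foxc1 summit had the higher coordinate in 215 pairs and the lower in 210. Regardless of side, the median distance was 65 bp (quartiles 27 and 142 bp). Summits lay within 50 bp of each other in 186 of 427 pairs (43.6%, interval 38.8 to 48.4%), within 100 bp in 274 (64.2%) and within 500 bp in 417. Each summit fell inside the other antibody's peak in 332 pairs (77.8%), and neither did in 35 (8.20%). The peaks shared a median of 277 bp, with median widths of 407 bp for the Foxc1 peaks and 361 bp for their Foxc2 partners. In 2 pairs both summits were the same base, 1 inside Nedd9, a scaffold protein of focal adhesions, and 1 beside Vegfa, the vascular growth factor that podocytes supply to glomerular capillaries.

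**Figure D2:**
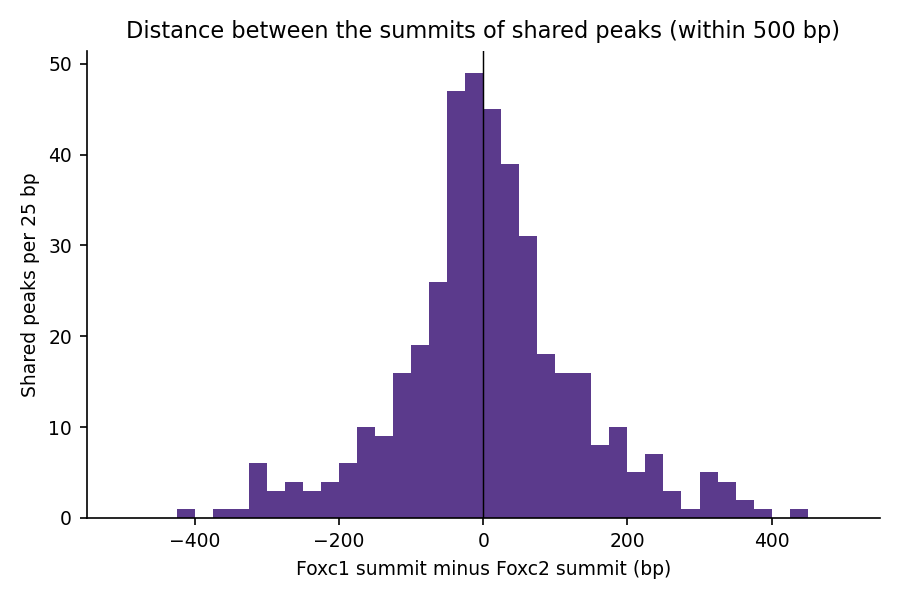
Foxc1 summit minus Foxc2 summit in bp (horizontal axis) against the number of shared peaks per 25 bp (vertical axis), for the 417 pairs within 500 bp. The bars centre on 0, and the median over all 427 pairs was 2 bp.

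Distances between summits differed with the place of the pair. A gene end here is either boundary of the span of a protein-coding gene, so gene starts count as gene ends. Pairs inside genes had a median distance of 48.5 bp (178 pairs, 52.8% within 50 bp, interval 45.2 to 60.3%), whereas pairs within 1 kb of a gene end had a median of 100.5 bp (114 pairs, 28.9% within 50 bp, interval 20.8 to 38.2%). Between genes the medians were 61.5 bp up to 50 kb from a gene end and 74 bp further out. When pairs were ranked by the lower of their fold percentiles within each list, the weakest 107 pairs had a median distance of 89 bp and the strongest 107 pairs 46 bp. Gene ends made up 37.4% of the weakest and 16.8% of the strongest of these pairs. Strength and place therefore varied together, and neither was separated from the other.

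The largest distances came from pairs in which the Foxc2 peak was much longer than the Foxc1 peak, or both were long. Near Col19a1, a collagen gene on chromosome 1, the summits stood 2045 bp apart in peaks of 4502 bp for Foxc1 and 4494 bp for Foxc2 (chr1:24611622-24616123 for Foxc1), with folds of only 3.87 and 2.52. No other Foxc1 peak among the shared ones was wider than 962 bp. The next largest distances were -1385 bp inside Bri3, near a boundary of Baiap2l1, and -804 bp near H2-Q6. Then came -725 bp near Ubn2 and 701 bp inside Kmt5b, a histone methyltransferase. The peaks near H2-Q6 overlapped by 7 bp only, and the Foxc2 peak there also met another Foxc1 peak. Without the widest pair the count was 426 and the median distance remained 65 bp.

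The enrichment of the shared peaks reached higher than that of the unshared peaks of the same list. Fold enrichment is the authors' peak caller's own value at the summit, relative to its local background, and it is given within each list only. Since the peaks were chosen by being called with both antibodies, these folds are a description. Shared Foxc1 peaks had a median fold of 5.85 (quartiles 4.27 and 9.81, range 2.58 to 50.5), against 4.90 for Foxc1 peaks alone (quartiles 4.11 and 6.49). Their Foxc2 partners had a median of 4.64 (quartiles 3.95 and 5.85, range 2.45 to 15.99), against 3.95 for Foxc2 peaks alone (quartiles 3.50 and 4.50). Of the shared peaks, 93 (21.8%) were in the top 10% of the Foxc1 list, 114 (26.7%) had a partner in the top 10% of the Foxc2 list and 28 (6.56%) had both. Both folds were above the median of their list in 214 pairs (50.1%) and neither was in 46 (10.8%). Across the 427 pairs, the folds of the 2 antibodies were only weakly related (Pearson's r of log2 folds 0.14), as a description of sites that share 2 libraries.

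**Figure D3:**
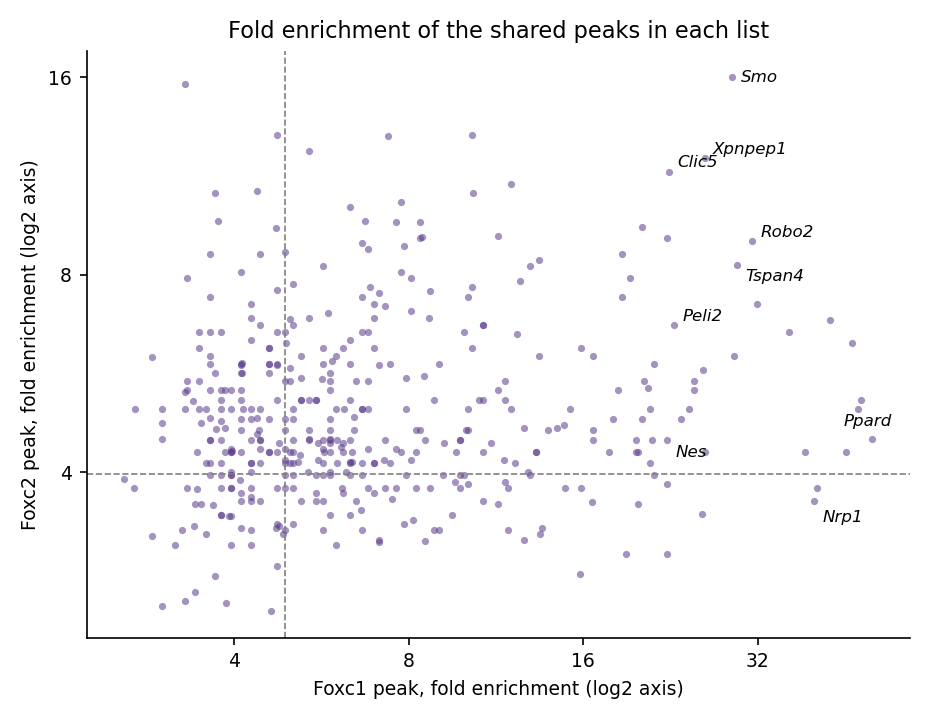
Fold enrichment of the Foxc1 peak (horizontal axis, log2 scale) against that of its Foxc2 partner (vertical axis, log2 scale) for the 427 shared peaks, 1 point each. Dashed lines mark the median of each whole list, 4.90 for Foxc1 and 3.97 for Foxc2. The named points include Smo, high in both, and Ppard and Nrp1, far to the right. Ppard lies above the Foxc2 median line and Nrp1 below it.

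The pair that ranked first by the lower of its fold percentiles in both lists lay at the start of Smo, the membrane protein that passes on Hedgehog signals. Its Foxc1 peak (chr6:29735267-29735784) had a fold of 28.95 and its Foxc2 peak 15.99, the highest of the Foxc2 list, with summits 2 bp apart and the Foxc1 summit 18 bp after the listed start. Cdon, a coreceptor of Hedgehog ligands, also ranked among the top 20 pairs, with folds of 18.7 for Foxc1 and 7.39 for Foxc2 inside the gene. Gas1, another Hedgehog coreceptor, had a pair 0.091 kb before its listed start with folds of 6.13 and 4.36. Counting summits inside a gene or within 50 kb of it, these 3 of 20 Hedgehog pathway genes had a shared peak (15%, interval 3.21 to 37.9%), beside 3.39% of all 21887 protein-coding genes.

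Of the other top pairs, most of those described next lay inside genes. Inside Clic5, a chloride channel family protein tied to the actin cortex of foot processes, folds reached 22.5 for Foxc1 and 11.5 for Foxc2 (chr17:44239021-44239629), and a further pair 21.9 kb away had folds of 8.07 and 7.91. Nearest to Robo2, a slit receptor that acts in podocyte foot processes, a pair lay 245 kb away between genes (chr16:73647035-73647715) with folds of 31.3 and 9.0. Inside Arhgap28, a GTPase-activating protein, the folds were 36.2 and 6.53. Tspan4, a tetraspanin, had folds of 29.5 and 8.29 beside its start, and the same pair stood 5.11 kb from Cd151, the tetraspanin partner of laminin-binding integrins in podocytes. Inside Lrrk1, a kinase of the LRRK family, the folds were 32.0 and 7.22. Inside Arnt2, a basic helix-loop-helix factor, they were 20.3 and 9.46, and inside P3h2, a prolyl hydroxylase that modifies basement membrane collagen, 22.3 and 9.11.

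The remaining top pairs included Xpnpep1, an aminopeptidase (25.9 and 12.04, 13.9 kb outside the gene). Another lay inside Tpcn1, an endolysosomal channel, and nearest to a boundary of Iqcd (42.7 and 6.83). Nrep, Tmem241, Zfp395, Cerk, Gmds, Tmem170b and a pair inside Abl1, a tyrosine kinase, completed the 20 with Peli2 and Zfp212. Foxc1 folds of the 20 ran from 12.3 to 46.5 and Foxc2 folds from 6.19 to 15.99. Pairs could also be strong with 1 antibody and middling with the other. The highest Foxc1 fold of all shared peaks, 50.5, lay inside Ppard, a fatty acid-sensing nuclear receptor (chr17:28253014-28253769), where the Foxc2 fold was 4.50 and the summits stood 4 bp apart. Inside Nrp1, a coreceptor of VEGF and semaphorins, the folds were 40.0 and 3.61. Within the Foxc2 list these partners stood at percentile 71.1 for Ppard and 28.7 for Nrp1. The reverse was seen inside Maml3, a Notch coactivator, with 4.38 for Foxc1 and 10.7 for Foxc2, and 9.42 kb from Foxd1, a forkhead factor of renal stroma and podocytes, with 5.38 and 12.3.

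Relative to genes, the shared peaks stood between the unshared peaks of the antibodies. A summit within 1 kb of either end of a protein-coding gene, its start included, was found for 114 of 427 shared peaks (26.7%, interval 22.6 to 31.2%). The share was 9.44% of 4780 Foxc1 peaks alone (interval 8.62 to 10.3%) and 56.7% of 2453 Foxc2 peaks alone (interval 54.7 to 58.7%). No listed start lay within 1 kb of 25 of these 114 shared peaks, 180 of 451 Foxc1 peaks alone and 307 of 1391 Foxc2 peaks alone. Elsewhere inside a gene lay 178 shared peaks (41.7%), against 51.6% of Foxc1 peaks alone and 28.3% of Foxc2 peaks alone. Outside genes, 84 shared peaks (19.7%) lay up to 50 kb from a gene end and 51 (11.9%) further out. Shared summits stood a median of 10.2 kb away from the nearest gene end, against 21.6 kb for Foxc1 alone and 0.567 kb for Foxc2 alone. None of these intervals at gene ends overlapped another, but peaks of 1 library are not replicates and no test was made.

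**Figure D4:**
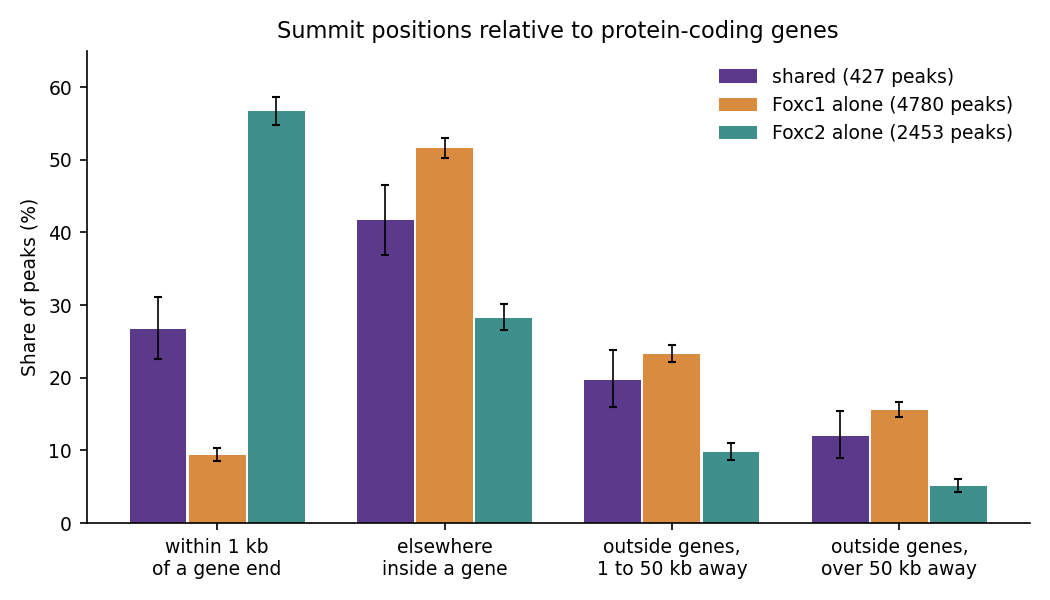
Share of peaks (vertical axis, %) by position of the summit relative to protein-coding genes (horizontal axis) for shared peaks, Foxc1 peaks alone and Foxc2 peaks alone, with exact 95% intervals as error bars. At gene ends, which include gene starts, the shared peaks, at 26.7%, stand between Foxc1 alone at 9.44% and Foxc2 alone at 56.7%.

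Near listed gene starts, the Foxc1 summit of a pair tended to lie on the promoter side of the Foxc2 summit. Of the shared peaks, 109 (25.5%) lay within 1 kb of a listed start. Their Foxc1 summits had a median position 72 bp before the start, written as -72 bp, and 69 of 109 lay before it (63.3%, interval 53.5 to 72.3%). Their Foxc2 summits had a median position of -13 bp, and 55 of 109 lay before it (50.5%, interval 40.7 to 60.2%). Within pairs the Foxc1 summit lay upstream of the Foxc2 summit in 66 of 109 (60.6%, interval 50.7 to 69.8%). The unshared peaks were arranged alike, with medians of -62 bp for Foxc1 alone and 29 bp after the start for Foxc2 alone. A start was listed for 17492 of 21887 protein-coding genes, so starts of the other genes were not used here. None was listed on chromosome 18, so its 17 shared peaks are absent from the results on starts and promoter windows.

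Shared peaks had more neighbours than unshared Foxc1 peaks did. Another Foxc1 summit lay within 10 kb of 110 shared peaks (25.8%, interval 21.7 to 30.2%), against 14.9% of Foxc1 peaks alone (interval 13.9 to 15.96%). A Foxc2 summit other than the partner's lay within 10 kb of 96 shared peaks (22.5%, interval 18.6 to 26.7%), against 9.52% of Foxc1 peaks alone (interval 8.70 to 10.4%). Place differed too, with 26.7% of shared peaks and 9.44% of Foxc1 peaks alone at gene ends, and its part was not tested. Neighbours of Foxc2 peaks alone were not counted. Shared peaks also neighboured each other: chained at 50 kb they formed 388 loci, and 35 of these loci contained at least 2 (74 peaks), with 3 in 4 loci. By chromosome the shared part of the Foxc1 peaks ran from 6.06% on chromosome 3 to 9.74% on chromosome 16 among the autosomes. On chromosome X it was 1 of 32 peaks, and on chromosome Y 0 of 3.

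The 4 loci with 3 shared peaks lay at Itgb5, Rbpms, the adjoining genes Tmod3 and Tmod2, and Eif3m. Itgb5, which encodes the integrin beta chain of a vitronectin receptor, held 3 within 42.2 kb and a further pair near its other end, so that 4 fell inside the gene. The Foxc1 peaks stood at 3.92, 5.70, 3.64 and 4.71 fold, and their Foxc2 partners at 3.42, 4.13, 8.60 and 3.29 fold. Tmod3 and Tmod2 encode tropomodulins, which cap the pointed ends of actin filaments, and 4 pairs lay inside or within 50 kb of Tmod3 with Foxc1 folds of 11.4, 5.06, 4.90 and 4.10. The 3 pairs inside Rbpms, an RNA-binding protein gene, had Foxc1 folds of 10.8, 3.32 and 3.64. Sox5, a SOX transcription factor gene, also had 3 nearby, of which 2 Foxc1 peaks overlapped the same Foxc2 peak.

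The Eif3m locus lay between that translation factor gene and Wt1, the zinc-finger factor required for podocyte identity, which was singled out here after its values were seen. The 3 pairs (chr2:105027134-105063575) reached 24.8, 20.9 and 5.06 fold with Foxc1, and 5.50, 5.0 and 3.33 fold with Foxc2. They stood 10.5, 41.8 and 46.4 kb from the nearer boundary of Eif3m and 99.0, 67.7 and 63.2 kb from the nearer boundary of Wt1. None was therefore counted for Wt1 under the 50 kb limit used below. A peak's target cannot be read from distance.

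By the rule of a summit inside the gene or within 50 kb of it, 741 of 21887 protein-coding genes had a shared peak (3.39%), of which 675 had 1 and 60 had 2. Longer genes were reached more often, with 2.49% of genes under 10 kb and 5.76% of those over 200 kb. Within 10 kb the count was 369 genes (1.69%) and within 5 kb 322 (1.47%). Either a shared peak or separate peaks of both antibodies lay inside or within 50 kb of 2744 genes, and for 741 of these (27.0%) there was a shared one.

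Of 46 podocyte marker genes, 11 had a shared peak (23.9%, interval 12.6 to 38.8%), beside 3.39% of all protein-coding genes. By the same rule 35 of the 46 had any Foxc1 peak and 38 any Foxc2 peak, beside 6404 and 5074 of all 21887 genes. Among the 32 markers with a shared peak or separate peaks of both antibodies, the 11 made up 34.4% (interval 18.6 to 53.2%), beside 27.0% of all such genes. The median span of these markers was 67.4 kb, so length moved with this share, and its part was not tested. Markers with the pair inside the gene were Clic5, Synpo, Arhgap24, Plce1, Pard3b, Mertk, Nes and Tns2, and those with it outside were Vegfa, Rhpn1 and Magi2. Synpo, the actin-bundling protein synaptopodin of foot processes, held 2 pairs at 3.86 and 5.0 fold with Foxc1 and at 5.33 and 6.86 fold with Foxc2, and their summits were 9 and 42 bp apart. Nes, the intermediate filament protein nestin, held 1 pair 1.40 kb from the nearer boundary of its span with folds of 22.3 and 4.47 (chr3:87972215-87972832). Arhgap24, a Rac-restraining GTPase activator mutated in inherited nephrotic syndrome, held 2 pairs with folds of 3.50 and 5.22 for Foxc1 and 3.57 and 5.57 for Foxc2. Mertk, a receptor kinase for apoptotic cell uptake, gave 2.89 and 6.00, and beside Vegfa the pair gave 4.43 and 4.47, 8.40 kb from the gene. Apart from Nes and the stronger Clic5 pair, the Foxc1 folds at these markers ran no higher than 8.07.

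Genes of the slit diaphragm, of cell polarity and of the cytoskeleton supplied some of the same names. Of 30 slit diaphragm and junction genes, 4 had a shared peak (13.3%, interval 3.76 to 30.7%), beside 3.39% of all protein-coding genes. Tjp1, the junction scaffold ZO-1, held one inside the gene with folds of 7.75 and 10.3, Pard3b, a polarity scaffold, one with 7.12 and 7.50, and Plce1, a phospholipase C mutated in nephrotic syndrome, one with 3.48 and 6.53. Near Magi2, a slit diaphragm scaffold, a pair lay 47.8 kb outside the gene with folds of 4.59 and 6.19. Of 40 actin and focal adhesion genes, 6 had one (15.0%, interval 5.71 to 29.8%). Nedd9 had the highest Foxc1 fold of these, 24.8, with 5.33 for Foxc2, and Tns2, a tensin of focal adhesions, had folds of 2.69 and 3.78 in peaks overlapping by 62 bp. Itsn1, an endocytic scaffold mutated in nephrotic syndrome, had a pair 0.146 kb outside the gene, inside Cryzl1, with 3.80 and 3.78. Of 47 inherited nephrotic syndrome genes, 7 had a shared peak (14.9%), and Kank1, a talin-binding protein, had the highest Foxc1 fold among them, 18.04, with 4.81 for Foxc2.

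Among 24 transcription factor genes of the podocyte, 3 had a shared peak (12.5%, interval 2.66 to 32.4%), beside 3.39% of all protein-coding genes. These were Foxd1, Klf9 and Zbtb7c, a zinc-finger factor. Foxd1 had 2 pairs outside the gene, at Foxc2 folds of 12.3 and 9.43, and Klf9 had 2, one of them at the start shown above and one 6.18 kb away with folds of 8.14 and 3.38. In the glomerular basement membrane list 2 of 26 genes had one, Cd151 and Agrn, the heparan sulfate proteoglycan agrin. The Agrn pair lay 0.530 kb outside the gene, on the side of its start, with folds of 13.3 and 4.30. Agrn was also the only gene with one among 41 of heparan sulfate synthesis and editing (2.44%), below the share of all protein-coding genes.

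Genes of the other glomerular and kidney cell types had shared peaks as well, in smaller numbers of genes. Their shares are to be read beside the 3.39% of all protein-coding genes. Mesangial and pericyte genes gave 3 of 28 (10.7%, interval 2.27 to 28.2%), namely Foxd1, Serpine2 and Pdgfrb, the platelet-derived growth factor receptor of mesangial cells, with folds of 5.22 and 6.02 inside the gene. That pair was also the one counted for the immune gene Csf1r, 46.99 kb away, the only one of 26 immune genes. Glomerular endothelium gave 2 of 32 (6.25%), Ets1 and Plat, and parietal epithelium 2 of 17, Prom1 and Gas1. Of 32 proximal tubule genes, 2 had a shared peak (6.25%, interval 0.766 to 20.8%), one of them the phosphate carrier gene Slc34a1 through the pairs at Grk6. Distal nephron genes gave 1 of 26 (3.85%) and housekeeping genes 1 of 28 (3.57%, interval 0.0904 to 18.3%). These shares, and the 3.85% of immune genes, stood near that of all protein-coding genes. Within 10 kb the distal nephron and immune lists had 0 genes. The interval of podocyte markers overlapped that of each list in this paragraph.

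Of the signalling lists, phosphoinositide and receptor kinase genes gave 8 of 42 (19.05%, interval 8.60 to 34.1%), beside 3.39% of all protein-coding genes. The strongest pair was that of Inppl1, a phosphatidylinositol phosphatase, with folds of 10.3 and 10.7 at 0.146 kb after a listed start. Others lay at the growth factor receptor genes Fgfr1, Fgfr2 and Igf1r, at Irs2, an insulin receptor substrate, and near Spry1, an inhibitor of growth factor signalling. Small GTPase regulators gave 7 of 44 (15.9%), with Arhgap28 highest. Notch pathway genes gave 4 of 25 (16%), namely the receptor gene Notch2, the coactivator genes Maml1 and Maml3 and the target gene Hes1, which had 2 pairs. VEGF and angiopoietin genes gave 3 of 18, which were Vegfa, Nrp1 and Nrp2. Guidance genes gave 3 of 37, Nrp1, Nrp2 and the plexin gene Plxna4, and Wnt genes 3 of 36, with the inhibitor gene Axin2, the transcription factor gene Tcf7l2 and the receptor gene Fzd2. The TGF-beta and BMP list gave 3 of 38, the inhibitor gene Smad7, with a Foxc1 fold of 48.3 and a Foxc2 fold of 5.14 at 9.91 kb outside the gene, and the receptor genes Bmpr2 and Acvr2b. The Hippo list gave 1 of 27, Axl.

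Transcription factor families were represented by nuclear receptors, with 7 of 48 genes (14.6%, interval 6.07 to 27.8%). Besides Ppard these included Rxra, its dimer partner, with a pair of folds 20.9 and 4.13, and the circadian repressor gene Nr1d2, with 9.81 and 3.78. Forkhead genes gave 5 of 44 (11.4%), Foxd1, Foxk1, Foxo3, Foxp1 and Foxs1. The pair 0.285 kb outside Foxp1 had folds of 21.0 and 4.47. Kruppel-like factors gave 3 of 17, Klf4, Klf7 and Klf9, with 24.4 and 4.99 at Klf7. ETS and SOX genes gave 4 of 31, Etv5, Ets1, Sox5 and Sox12. With only pairs of fold 5 or more in both lists, nuclear receptors, Kruppel-like factors and ETS and SOX genes each had 0 genes left. Of the 27 lists, 26 stood above the 3.39% of all protein-coding genes, so standing above it does not set one list apart.

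**Figure D5:**
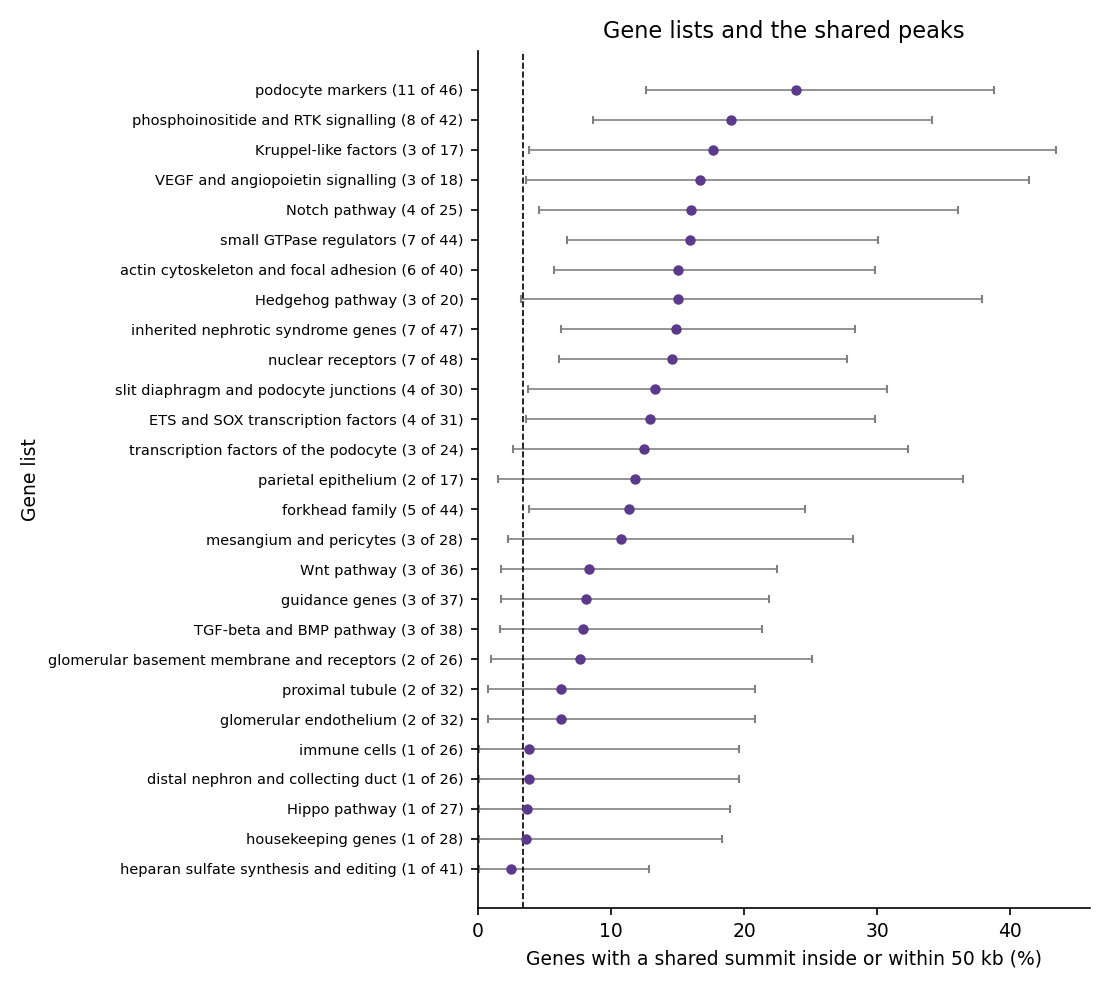
Share of genes with a shared summit inside the gene or within 50 kb (horizontal axis, %) for the 27 gene lists (vertical axis, with counts), with exact 95% intervals, and the 3.39% of all protein-coding genes as a dashed line. Podocyte markers are highest at 23.9%, and all but 1 of the points lie to the right of the line.

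The rule of 1 shared bp divides peaks that barely differ. Just inside it were the Foxc1 peaks near Ptpdc1 and Zbtb20, which overlapped a Foxc2 peak by 6 bp, and near H2-Q6, by 7 bp. Just outside it were the Foxc1 peaks near Borcs6 and Hivep1, each 1 bp from a Foxc2 peak, and near Metrnl, 4 bp away. Of the unshared Foxc1 peaks, 10 lay less than 50 bp from a Foxc2 peak and 113 less than 1000 bp.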

How the data were processed

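Foxc1 and Foxc2 ChIP-seq of glomeruli gave 1 deposited peak list each, and the 3 samples were grouped by title. The submitters' processing notes name mm10, Bowtie2 for mapping and MACS2 for peaks. The sources used here do not give versions, settings, filters, the control of each list or any pooling. The authors' fold enrichment is a ratio to local background. The authors also deposited the −log10 of the p-value and q-value, and a score equal to 10 times the −log10 q with decimals dropped, not used here. All peaks had q under 0.05. Depth is unknown.

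Foxc1 peaks were paired with the overlapping Foxc2 peak (the partner of nearest summit for 1 peak with 2), giving 428 overlaps for 427 peaks, and summits were the start plus the deposited offset. More than 1 Foxc1 peak was met by 3 Foxc2 peaks. Gene spans, starts and promoter windows came from RefSeq tables of GRCm38.p6. A genome was not used here, nor were exons. Windows were searched for TGTTTAC on both strands. Distances were measured from the Foxc1 summit, and a gene end is either boundary of the gene span, the start included. Intervals are exact Clopper-Pearson 95% intervals (scipy 1.17.1, pandas 2.3.3, Python 3.11.15). No test was made, since peaks and genes of 1 library are not replicates. The members, the gene lists, of 872 names, and the rules were chosen with earlier results of these data known. Named were the 20 pairs highest by the lower of both fold percentiles, the 10 genes with most shared peaks, members of the 4 podocyte, junction, actin and podocyte factor lists within 5 kb, up to 3 members of each other list, the 5 largest summit distances and 3 pairs to either side of the overlap rule. Some of these are left out, and further members of lists with few genes were named after their values were seen. Alternatives changed the overlap, peak thresholds, gene distance, summit used and motif. The steps were tested on simulated data.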

Additional observations from a re-analysis of the deposited data

How the results depend on the processing

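The number of shared peaks rested most on how strong or how well aligned they had to be: 274 had summits within 100 bp and 111 had a fold of 5 or more in both lists, against 427. It was 300 with at least 50% of each peak covered, 294 at −log10 q of 5 or more in both, 429 with other sequences and 425 counted over Foxc2 peaks. The median distance between summits, 65 bp, was 50 bp with at least 50% overlap, 55.5 bp at the stricter q and 44 bp at fold 5 or more. A demand for more overlap itself limits this distance. The share at gene ends, 26.7%, was 20.1% within 500 bp, 39.8% within 5 kb, 20.8% for summits within 100 bp and 14.4% at fold 5 or more. Genes with a shared peak, 741, were 369 within 10 kb, 377 by nearest end alone and 183 at fold 5 or more, and podocyte markers, 11, were then 10, 14 and 5. The heptamer share, 22.7%, was 35.5% with TGTTTNC and 20.8% under the Foxc2 peaks. Of 104 other list values under alternatives, 67 stayed within 1.5 times, and at fold 5 or more 19 of 27 lists stood above all genes. The other 8 then had 0 genes, namely nuclear receptors, Kruppel-like factors, ETS and SOX factors, parietal epithelium, distal nephron, Hippo, Wnt and heparan sulfate genes. The cause of these moves was not tested. Alternatives without the widest pair, by listed starts and for the window part inside the peak were chosen after seeing the data. Motif searches around summits in the genome were not run. No paired analysis was possible because there is 1 library per antibody. Depth is unknown, so a missing partner peak may lie under either list's threshold.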

Other observations

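Counted against genes of every kind, the nearest gene end belonged to a protein-coding gene for 249 of 427 shared peaks (58.3%), to a long non-coding RNA gene for 142 (33.3%), to a pseudogene for 23 and to a miRNA gene for 7. Foxc1 peaks alone had 52.0% and 33.6% nearest to protein-coding and long non-coding genes, and Foxc2 peaks alone 74.3% and 20.1%. A pair inside Mcm7, a helicase subunit gene, lay 5.65 kb from Mir25, in whose neighbourhood Mir93 and Mir106b also lie, with folds of 5.70 for Foxc1 and 3.95 for Foxc2. It was 1 of 2 pairs in which the heptamer lay nearer to the Foxc2 summit. Another 3 podocyte markers had a shared peak nearest to a boundary of their span but over 50 kb away, Robo2 at 245 kb, Thsd7a at 144 kb and Foxd2 at 62.8 kb.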
